A study of Mus musculus with 20 samples.

Results

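Chemokines are small secreted proteins that steer white blood cells through tissues, and their receptors are G protein coupled receptors on the cells that follow them. The ligands are named by the spacing of their conserved cysteines (Ccl, Cxcl and Cx3cl), and a receptor usually answers several ligands. In liver they draw neutrophils, monocytes and lymphocytes to the sinusoids, and they are made by hepatocytes, endothelium, stellate cells and resident macrophages (Kupffer cells). The genes described here are the autosomal loci of the deposited table whose symbol begins with Ccl, Cxcl, Cx3cl, Ccr, Cxcr or Cx3cr followed by a digit. Described here are 63 such loci with 53 symbols, made up of 47 ligand loci and 16 receptor loci, among 25444 loci in the table. A further 6 loci matched by name but lay on the X chromosome (Cxcr3, with a highest count of 54 in any liver) or on sequence not placed on a chromosome (Ccl28, 2 loci of Ccl21b and 2 of Ccl21c), and they were left out.

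RNA was sequenced from the livers of 20 mice at 20 weeks of age. The 4 groups, each of 5 livers, were females and males of the C57BL/6N (B6) and C3H/HeN (C3) inbred strains, with no treatment or transgene in any group. Sexes were housed in separate rooms, so that sex and room cannot be told apart, and each library was sequenced in 1 of 3 pools, which entered the fit as a covariate. The study describes the strains as opposite in their liability to spontaneous liver tumors, which is high in C3. The tissue was a sample of whole lobe, so RNA from all of its cell types is mixed. Total counts per liver ran from 27370921 to 46835745, and the floor of 3 counts stood for 0.0590 to 0.116 CPM, the counts scaled to a common library size. The 5 hepatocyte markers (Alb, Apoa1, Ttr, Tat and Hnf4a) summed to 84642 to 117645 CPM in B6 females and 66591 to 91650 in B6 males. In C3 they summed to 123807 to 153274 CPM in females and 97078 to 124288 in males. Apoa1 was higher in C3 in females and males (edgeR's quasi-likelihood test, adjusted p = 1.3e-05 and 9.9e-05), and so was Alb (adjusted p = 3.5e-04 and 8.8e-04). Ttr, Tat and Hnf4a had no adjusted p under 0.05 by strain. Of the erythroid markers Hbb-b1 and Hba-a1 had 0 counts in all livers. The list of 5 summed to 16.1 to 33.0 CPM in females and 146 to 226 in males. Nearly all of it came from Alas2, the heme synthesis enzyme of red cell precursors. Alas2 was higher in males of B6 and C3 (edgeR's quasi-likelihood test, adjusted p = 3.7e-11 and 5.6e-12). Slc4a1, the other erythroid marker with enough counts to test, showed no such difference. Its log2 fold changes for females against males were -0.44 ± 0.37 (SE) in B6 and -0.23 ± 0.48 in C3 (adjusted p = 0.388 and 0.727 in the same test). Of the pancreatic markers Prss2, Amy2a5 and Pnlip had 0 counts and Ctrb1 at most 0.0300 CPM, while the protease gene Cela1 was at 6.35 to 57.5 CPM and was higher in C3 in females and males (adjusted p = 5.3e-04 and 2.8e-06 in the same test). Hba-a1 and Amy2a5 are each annotated at more than 1 locus, and reads that matched more than 1 place were not counted. Their zeros can therefore not be read as absence of the RNA. Whether Hbb-b1 lost reads in the same way was not tested.

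Most chemokine and receptor genes were rare in these livers. More than 3 counts in each of the 5 livers were found for 26 of the 63 loci in females and 22 in males of B6, and 23 and 18 in C3 females and males, and for 18 loci in all 20 livers. Enough counts for a test were present at 22 loci (16 ligands and 6 receptors), which is 34.9% of the loci against 53.9% of all loci in the table. Because a gene could pass this filter through its highest group alone, counts over these 22 genes describe the tested genes and not the family. The remaining 41 loci included 25 with at least 1 count, led by Ccl22 with a highest count of 26, Cxcr5 with 22, Ccr7 with 21, Cxcr2 with 20, Ccl4 with 18, and Cxcl2 and Ccr1 with 16 each. Ccl3 reached 8 counts, Ccl12, Ccl8 and Ccr1l1 reached 5, and Ccl7, Ccl11 and Ccr6 reached 4. Ccl17, Cxcl5 and Cxcr1 had at most 3 counts in any liver, Ccl26, Ccl1, Ccl20, Ccr10 and Ccr4 at most 2, and Ccl19 and Ccr8 at most 1. The 16 loci with 0 counts throughout carried 7 symbols (Ccl21a, Ccl21b, Ccl21c, Ccl27b, Cxcl3, Cxcl15 and Cxcl17).

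Part of these zeros lies in how reads were counted. Reads that matched more than 1 place were not counted, and 16 of the 63 loci lie in a repeated stretch of chromosome 4 (mm9 chr4:41716343-42787523) that holds Ccl27a and the copies of Ccl19, Ccl21a, Ccl21b, Ccl21c and Ccl27b. When the mm9 sequence was cut into windows of 125 bases, the read length, 100% of the windows in each of the 15 loci other than Ccl27a occurred again in that stretch or the sequence next to it. Levels of Ccl19, Ccl21 and Ccl27b could therefore not be read from this table. Ccl27a, the remaining locus, shared 31.5% of all its windows and 55.4% of its exonic windows, so that its counts come from the unique part and its level per length is understated to an extent that was not tested.

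Among the 22 tested genes Cxcl12, Ccl9 and Cxcl1 stood highest. Levels between genes are given as TPM, the deposited unit of transcript abundance that corrects for gene length and depth. Cxcl12, the ligand of Cxcr4 that holds blood cell precursors and lymphocytes in their niches, had a mean of 76.2 TPM over the groups, with 82.6 ± 11.6 in females and 73.8 ± 9.04 in males of B6, and 80.4 ± 9.72 and 68.1 ± 5.43 in C3 females and males (SD, n = 5 each). Ccl9, a ligand of Ccr1 that attracts myeloid cells, followed with 69.0 TPM. The ranges of Cxcl12 and Ccl9 overlapped in B6 females (62.8 to 92.9 against 49.0 to 75.0 TPM), in C3 females (71.6 to 97.1 against 90.4 to 97.9) and in C3 males (60.8 to 74.2 against 66.3 to 113), and were apart in B6 males (64.1 to 85.5 against 27.2 to 43.4).

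Cxcl1, which attracts neutrophils through Cxcr2, was the third at 20.6 TPM. Cxcl16, a membrane ligand of Cxcr6, stood at 7.60 TPM, Cxcl9, an interferon induced ligand of Cxcr3, at 7.53, Ccl6, another Ccr1 ligand, at 6.35, Ccl27a, a ligand of Ccr10 best known from skin, at 4.57, and Ccl25, a ligand of Ccr9, at 4.48. Of the 7 pairs of neighbours among these 8 genes, Ccl9 and Cxcl1 were apart in all 4 groups, and Cxcl9 and Ccl6 overlapped in all 4. Cxcl1 was apart from Cxcl16 except in B6 females, and Cxcl16 overlapped with Cxcl9 except in C3 males. Ccl27a lay apart from Ccl6 in both C3 groups, and apart from Ccl25 in all groups but B6 males, above it in B6 females and below it in C3. Cxcl12 made up 23.9% to 45.8% of the summed TPM of the family in a liver and Ccl9 14.8% to 42.9%. That sum was 234 ± 25.3 TPM in females and 177 ± 7.59 in males of B6, and 235 ± 14.6 and 227 ± 29.8 in C3 females and males (SD, n = 5 each). Below these 8 genes came Ccl24 (3.78 TPM), Cxcl10 (3.31), Cxcl13 (2.49), Cxcl11 (2.03), Ccl2 (1.78), Ccl5 (1.47) and Cxcl14 (1.04), all of them ligands. Receptors were low, from Ccr2 at 0.981 TPM, Cxcr6 at 0.969, Cx3cr1 at 0.508 and Cxcr4 at 0.505 to Ccr3 at 0.133 and Ccr9 at 0.0983, and the membrane ligand Cx3cl1 was at 0.240.

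**Figure D1:**
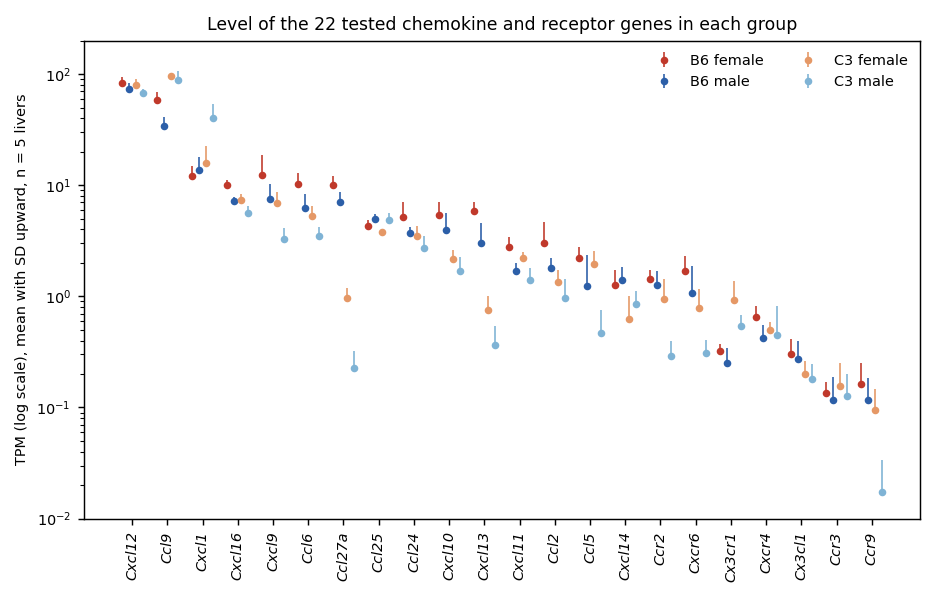
Mean TPM on a log axis for the 22 tested chemokine and receptor genes, ordered by their mean over the groups; points are means of 5 livers per group and bars show 1 SD upward. Cxcl12, at 68.1 to 82.6 TPM, is level across the groups. Ccl27a is highest in B6 females, and in males it is at 7.09 TPM in B6 and 0.227 in C3.

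Sex was compared within each strain and strain within each sex, and the difference between the sex effects of the strains was tested as an interaction. A gene is called below at a Benjamini-Hochberg adjusted p under 0.001 over the 13704 genes tested, with an absolute log2 fold change over 0.5, from edgeR's quasi-likelihood test with sequencing pool as a covariate. Each liver enters 2 of the 4 pairwise comparisons, which are therefore not independent of each other. Females against males gave 1 called gene of the 22 in B6 (Ccl9, 4.55%, against 6.34% of all genes tested) and 2 in C3 (Ccl27a and Cxcl1, 9.09% against 6.90%), shares near the background. C3 against B6 gave 5 called genes in females (22.7% against 9.40% of all genes) and 5 in males (22.7% against 9.64%), shares above the background. In females 1 of those 5 was higher in C3 (background 4.63%) and 4 were higher in B6 (background 4.77%), and in males 2 were higher in C3 (4.09%) and 3 in B6 (5.55%). The interaction gave 1 gene, Ccl27a (4.55% against 0.401%). Without the pool term the strain counts were 2 in females and 5 in males, and the share of all genes called in that fit is not given here.

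**Figure D2:**
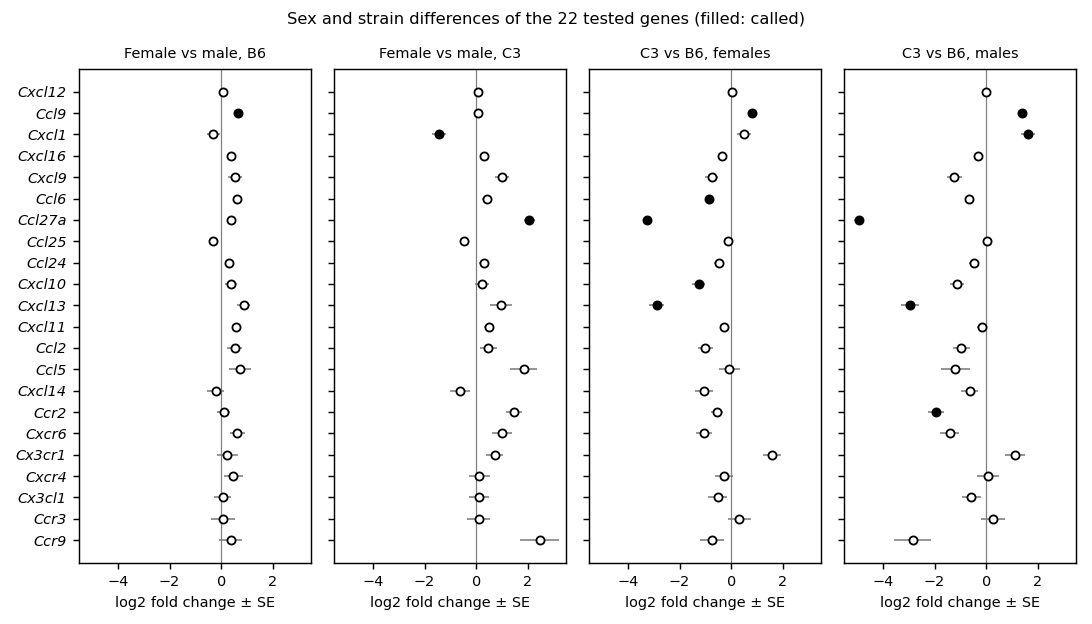
Log2 fold change with its SE for the 22 tested genes in the 4 pairwise comparisons, one panel each; filled points were called. In the strain panels most points lie to the left of 0, higher in B6, with Ccl27a at -3.26 in females and -4.94 in males, and Ccl9 lies to the right at 0.81 and 1.38.

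At the looser limit of an adjusted p under 0.05, 7 tested genes differed by sex in B6 (34.6% of all genes passed), 10 in C3 (40.0%), 11 by strain in females (32.9%), 13 by strain in males (34.5%) and 2 in the interaction (2.96%). Of the 7 in B6, 6 were higher in females, and of the 10 in C3, 8 were. Of the strain differences, 9 of 11 in females and 10 of 13 in males were higher in B6. The share of all genes in each direction was not counted at this limit. With no limit on p, 19 of the 22 genes leaned to females in each strain, against 50.2% and 51.9% of all genes in B6 and C3. Without a limit, 17 in females and 15 in males leaned to B6, against 46.6% and 47.6% of all genes. The median log2 fold change of the 22 genes was 0.37 and 0.36 for females against males in B6 and C3, and -0.51 and -0.61 for C3 against B6 in females and males, while the median over all genes lay between 0.00 and 0.02 in those comparisons.

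The sequences just upstream of the genes called between strains, the comparisons with most calls, are shown so that the promoters of genes lying side by side or moving together can be read. They are the 250 bases before the first annotated base, from the mm9 genome in the direction of transcription. Ccl27a is read from chr4:41721050-41721299 (- strand), Ccl6 from chr11:83406590-83406839 (- strand), Ccl9 from chr11:83392139-83392388 (- strand), Ccr2 from chr9:124016672-124016921 (+ strand), Cxcl1 from chr5:91320021-91320270 (+ strand), Cxcl10 from chr5:92777916-92778165 (- strand) and Cxcl13 from chr5:96385708-96385957 (+ strand). Capitals mark matches on either strand to an NF-kB consensus (GGGANNNNCC), an interferon response element (GAAANNGAAA) or a TATA box (TATAAA):
Ccl27a: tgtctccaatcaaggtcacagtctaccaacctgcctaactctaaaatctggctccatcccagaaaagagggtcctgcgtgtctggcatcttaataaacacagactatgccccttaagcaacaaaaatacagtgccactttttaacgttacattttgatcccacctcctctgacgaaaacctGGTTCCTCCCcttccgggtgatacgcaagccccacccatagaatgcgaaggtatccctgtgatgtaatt
Ccl6: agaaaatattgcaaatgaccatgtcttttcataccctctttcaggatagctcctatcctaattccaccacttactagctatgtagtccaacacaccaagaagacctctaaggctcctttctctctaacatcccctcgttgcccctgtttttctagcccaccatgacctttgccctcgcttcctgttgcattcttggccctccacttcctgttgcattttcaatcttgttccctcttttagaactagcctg
Ccl9: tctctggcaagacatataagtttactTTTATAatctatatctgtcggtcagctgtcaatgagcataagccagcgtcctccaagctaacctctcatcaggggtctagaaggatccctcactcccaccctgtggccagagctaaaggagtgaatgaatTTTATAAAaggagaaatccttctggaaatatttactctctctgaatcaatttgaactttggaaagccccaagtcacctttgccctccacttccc
Ccr2: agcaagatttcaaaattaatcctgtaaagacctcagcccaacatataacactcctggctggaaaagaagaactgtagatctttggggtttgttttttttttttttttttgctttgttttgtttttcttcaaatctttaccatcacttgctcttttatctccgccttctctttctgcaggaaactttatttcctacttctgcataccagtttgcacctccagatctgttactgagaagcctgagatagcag
Cxcl1: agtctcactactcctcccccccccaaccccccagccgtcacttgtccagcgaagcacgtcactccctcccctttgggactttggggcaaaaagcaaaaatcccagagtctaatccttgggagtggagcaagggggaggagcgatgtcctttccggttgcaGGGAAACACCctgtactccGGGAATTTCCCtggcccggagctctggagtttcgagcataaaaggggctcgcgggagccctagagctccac
Cxcl10: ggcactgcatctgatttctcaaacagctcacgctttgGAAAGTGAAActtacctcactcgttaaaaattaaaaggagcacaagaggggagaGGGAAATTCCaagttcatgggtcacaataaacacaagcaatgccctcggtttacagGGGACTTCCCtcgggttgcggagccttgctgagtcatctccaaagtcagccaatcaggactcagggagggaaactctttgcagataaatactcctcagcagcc
Cxcl13: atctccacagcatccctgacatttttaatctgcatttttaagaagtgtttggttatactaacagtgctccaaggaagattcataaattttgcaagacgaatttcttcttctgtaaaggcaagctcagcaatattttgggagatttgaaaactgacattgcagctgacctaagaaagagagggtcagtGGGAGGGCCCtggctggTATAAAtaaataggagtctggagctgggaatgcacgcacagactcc

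Cxcl10 held an NF-kB match at -159 to -150 and another at -103 to -94, the latter on both strands, and the interferon element at -213 to -204, where -1 is the base before the start. Cxcl1 held NF-kB matches at -90 to -81, -71 to -62 and -70 to -61, the last pair overlapping on opposite strands. Cxcl13 held an NF-kB match at -63 to -54 and a TATA box at -46 to -41. Ccl9 held TATA letters at -224 to -219, -94 to -89 and -92 to -87, the last pair overlapping on opposite strands. Ccl27a held an NF-kB match at -69 to -60 on the opposite strand, and Ccl6 and Ccr2 held none of the letters in this window. No match to a motif overlapped a match to another motif. Over the 22 tested genes the NF-kB letters were found upstream of 8, against 18.9% of 25283 windows of all genes and 22.2% of those of tested genes. The interferon element was found upstream of 2 (3.16% and 2.88%) and the TATA letters upstream of 8 (12.3% and 7.01%). These matches describe the sequence and are no evidence of binding.

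Ccl27a (gene ID 20301, chr4:41716343-41721049) differed most between the strains, and differed by sex in C3. In B6 females 1 to 5 it was measured at 5.35, 4.78, 7.01, 8.62 and 7.52 CPM, and in B6 males at 5.93, 5.66, 3.87, 3.70 and 6.41. In C3 females it was at 0.661, 0.598, 0.560, 0.991 and 0.600 CPM. In C3 males it was at 0.0774, 0.230, 0.180, 0.119 and 0.250 CPM, from 2 to 8 counts a liver. Every C3 liver was below every B6 liver, and every C3 male was below every C3 female, while the sexes overlapped in B6.

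Between strains, Ccl27a was 9.58-fold lower in C3 females (log2 fold change -3.26 ± 0.13 (SE), adjusted p = 1.1e-12) and 30.7-fold lower in C3 males (-4.94 ± 0.17, adjusted p = 9.8e-14). Within pools 1, 2 and 3 the log2 ratios were -3.34, -3.41 and -3.13 in females and -4.88, -5.18 and -4.99 in males. C3 females were 4.18-fold above C3 males (2.06 ± 0.21, adjusted p = 9.1e-07; 1.96, 2.01 and 2.29 within pools), and the sex difference in B6 was 0.38 ± 0.11 (adjusted p = 0.0119). The sex effects of the strains differed by 1.68 ± 0.24 on the log2 scale (adjusted p = 5.8e-04). That call was lost without the pool term, with the replicate number as a block, and when any of 15 livers was left out. It was also lost in limma on log2(TPM + 1) and on log2(TPM + 0.1). Its annotated span shares 4 bases with Il11ra1 on the other strand. In C3 livers Ccl27a rested on few reads, and the reads it shares with its chromosome 4 copies were not counted.

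Ccl9 (20308, chr11:83386419-83392138) and Ccl6 (20305, chr11:83401388-83406589), neighbouring genes for myeloid attractants that act through Ccr1, moved in opposite directions between strains in females. Ccl9 was at 65.0, 65.8, 80.3, 106 and 79.6 CPM in B6 females and at 54.7, 64.7, 40.3, 39.0 and 54.9 in B6 males. In C3 it was at 139, 135, 132, 136 and 137 CPM in females and at 122, 173, 158, 102 and 125 in males. Each C3 female exceeded each B6 female and each C3 male exceeded each B6 male, and the sexes were apart in B6 by the narrow step from 64.7 to 65.0 CPM but overlapped in C3.

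Ccl9 was higher in C3, by 1.75-fold in females (0.81 ± 0.10, adjusted p = 3.9e-06; 0.56, 0.79 and 1.03 within pools) and 2.60-fold in males (1.38 ± 0.10, adjusted p = 4.0e-09; 1.47, 1.18 and 1.37). It was 1.57-fold higher in females than in males of B6 (0.65 ± 0.10, adjusted p = 7.5e-05; 0.63, 0.55 and 0.72), and 0.07 ± 0.10 was measured in C3 (adjusted p = 0.574). The calls by sex and by strain in females were lost without the pool term. Its interaction, -0.57 ± 0.14, had an adjusted p of 0.0299 and was not called.

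Ccl6 was measured at 8.95, 7.02, 5.33, 5.45 and 6.46 CPM in B6 females and at 3.37, 2.75, 4.72, 4.23 and 3.03 in C3 females. B6 males had 3.82, 2.63, 6.15, 5.43 and 3.99 CPM and C3 males 2.71, 2.36, 2.07, 3.37 and 2.43. The strains did not overlap in females and overlapped in males. Ccl6 was 1.81-fold lower in C3 females (-0.86 ± 0.16, adjusted p = 4.5e-04; -0.71, -0.66 and -1.10 within pools), a call lost without the pool term, in a fit to the 10 female livers alone, and when any of 5 livers was left out. In males the difference was -0.67 ± 0.17 (adjusted p = 0.00621). Its whole span of 5202 bases lies opposite E230016K23Rik on the other strand, and counting used the strand. The third tested gene of this cluster, Ccl5, a ligand of Ccr1 and Ccr3, had 0 to 33 counts a liver and was not called in any comparison. Its largest difference was in C3, at 0.491 ± 0.170 CPM in females and 0.128 ± 0.0757 in males (SD, n = 5 each; adjusted p = 0.00995).

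Cxcl1 (14825, chr5:91320271-91322141) was the neutrophil attractant with enough counts to test, out of 5 in its group with Cxcl2, Cxcl3, Cxcl5 and Cxcl15, and it was high in C3 males. These 5 livers had 18.6, 29.3, 23.1, 13.5 and 14.8 CPM. C3 females had 4.96, 11.1, 4.05, 7.0 and 8.77 CPM. B6 females had 5.23, 3.22, 6.51, 6.37 and 4.49 CPM and B6 males 5.87, 9.33, 7.23, 4.86 and 4.33. Each C3 male lay above each liver of the other groups, and those groups overlapped.

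C3 males were 3.07-fold above B6 males in Cxcl1 (1.62 ± 0.27, adjusted p = 1.3e-04; 1.94, 1.51 and 1.16 within pools). C3 females were 2.70-fold below C3 males (-1.43 ± 0.27, adjusted p = 5.8e-04; -1.74, -1.75 and -0.83 within pools), a call lost without the pool term, in the 10 C3 livers alone and when any of 7 livers was left out. In B6 the sex difference was -0.30 ± 0.27 (adjusted p = 0.417), and the interaction of -1.13 ± 0.39 was not called (adjusted p = 0.133). The neutrophil markers S100a8, S100a9, Ngp, Ltf and Camp summed to 0.155 to 0.691 CPM in C3 males and 0.991 to 2.73 in C3 females. In B6 they summed to 0.543 to 1.08 CPM in females and 0.368 to 0.898 in males. Ngp, Ltf and Camp had at most 0.120 CPM, and only S100a8 and S100a9 could be tested, both low. In edgeR's quasi-likelihood test S100a9 was called higher in C3 females than in C3 males (1.89 ± 0.33, adjusted p = 2.7e-04), and S100a8 had an adjusted p of 0.0047. Between the males of the strains neither passed 0.05 (adjusted p = 0.637 for S100a8 and 0.0671 for S100a9). Their relation to Cxcl1 was not tested.

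The 3 interferon induced ligands of Cxcr3, Cxcl9, Cxcl10 and Cxcl11, lie together on chromosome 5, and all had a lower mean in C3 than in B6 in each sex. Cxcl10 (15945, chr5:92775665-92777915) was at 2.40, 2.61, 2.49, 1.95 and 3.98 CPM in B6 females and at 1.22, 0.997, 1.48, 1.05 and 0.901 in C3 females, with no overlap. B6 males had 1.92, 1.53, 2.33, 3.43 and 1.35 CPM and C3 males 1.51, 0.893, 0.869, 0.855 and 0.678, which overlapped. It was 2.40-fold lower in C3 females (-1.26 ± 0.25, adjusted p = 6.2e-04; -1.60, -1.03 and -1.02 within pools), a call lost without the pool term, with the replicate number as a block, in the 10 female livers alone and when any of 8 livers was left out. In males the difference was -1.12 ± 0.27 (adjusted p = 0.00332).

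Cxcl9 was not called by strain, at 16.4 ± 8.23 CPM in B6 females and 9.52 ± 2.98 in C3 females (adjusted p = 0.0296) and at 10.6 ± 3.99 in B6 males and 4.89 ± 1.25 in C3 males (adjusted p = 0.00235; SD, n = 5 each). Cxcl11 had adjusted p-values of 0.249 and 0.539 by strain and of 0.0107 and 0.0352 by sex in B6 and C3, with log2 fold changes of 0.59 ± 0.17 and 0.49 ± 0.18 for females against males. Both Cxcl10 and Cxcl11 lie opposite Art3 on the other strand.

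Cxcl13 (55985, chr5:96385958-96390087), the ligand of Cxcr5 that gathers B cells into follicles, was lower in C3 in each sex. B6 females had 2.87, 4.06, 3.07, 2.79 and 2.42 CPM and C3 females 0.463, 0.421, 0.246, 0.360 and 0.600. B6 males had 3.21, 1.53, 1.79, 1.18 and 0.920 CPM and C3 males 0.155, 0.403, 0.210, 0.143 and 0.178, so the strains did not overlap in either sex. It was 7.39-fold lower in C3 females (-2.89 ± 0.30, adjusted p = 4.0e-07; -2.44, -2.73 and -3.38 within pools) and 7.80-fold lower in C3 males (-2.96 ± 0.35, adjusted p = 2.5e-06; -2.0, -4.27 and -3.38), from 4 to 20 counts a liver in C3. By sex it was not called, with 0.88 ± 0.25 in B6 (adjusted p = 0.0116) and 0.96 ± 0.42 in C3 (adjusted p = 0.0776).

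The B cell markers Cd79a, Cd79b, Ms4a1 and Blk, whose cells carry Cxcr5, summed to 1.93 to 3.56 CPM in B6 females, 1.78 to 2.24 in C3 females, 1.01 to 3.53 in B6 males and 0.576 to 0.839 in C3 males. Of the 3 that could be tested, 1 in females and 3 in males were lower in C3 at an adjusted p under 0.05, short of a call. Their part in the Cxcl13 difference was not tested.

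Cxcl12, Cxcl16, Cxcl14, Ccl25, Ccl24 and Ccl2 were not called in any comparison. Cxcl12 showed no difference past either limit, at 267 ± 35.2 CPM in females and 258 ± 27.5 in males of B6, and 272 ± 26.6 and 251 ± 19.4 in C3 females and males (SD, n = 5 each), and its log2 difference between strains was bounded by -0.13 to 0.19 in females and -0.16 to 0.17 in males (95% intervals). Cxcl16 was 11.1 ± 1.32, 8.67 ± 0.782, 8.62 ± 0.951 and 7.14 ± 1.04 CPM in the same order, with adjusted p-values from 0.0105 to 0.0362 and log2 sizes from 0.30 to 0.36. Cxcl14 had its largest difference by strain in females (-1.04 ± 0.35, adjusted p = 0.0298). Ccl25, the ligand of Ccr9 that guides T cells to thymus and gut, was lower in females, at -0.33 ± 0.12 in B6 (adjusted p = 0.0365) and -0.48 ± 0.12 in C3 (adjusted p = 0.00484), and was not called. Ccl24, an eosinophil attractant, had no adjusted p under 0.0588, and Ccl2, the main monocyte attractant, was at -1.01 ± 0.29 by strain in females (adjusted p = 0.0116) and -0.97 ± 0.33 in males (adjusted p = 0.0283).

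**Figure D3:**
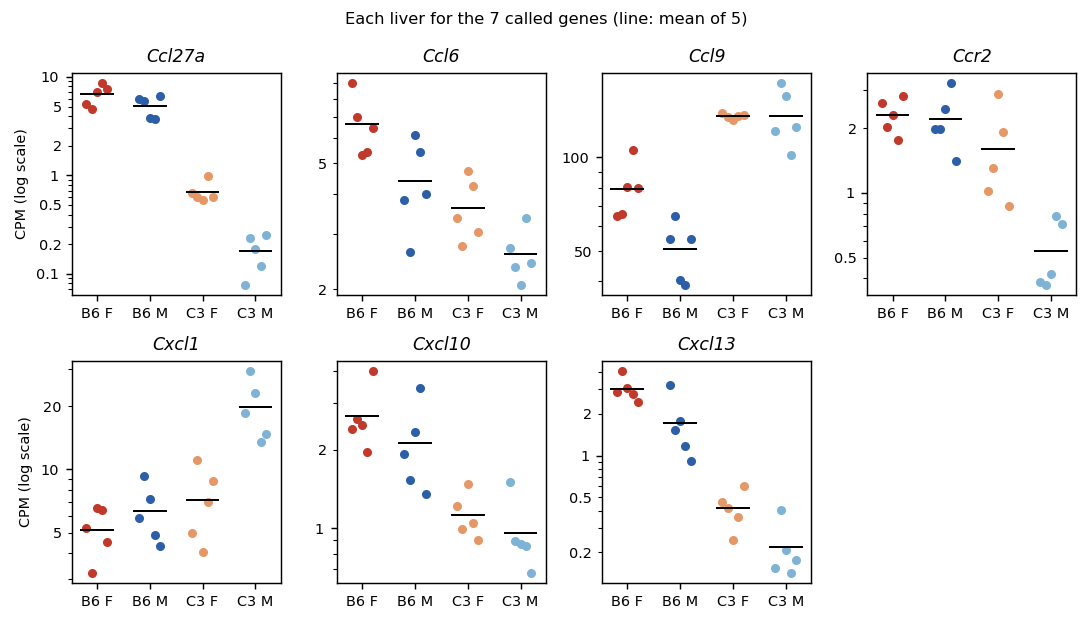
CPM on a log axis in each of the 20 livers for the 7 genes called in any comparison, with a line at the mean of 5. The C3 males sit above all other livers for Cxcl1, from 13.5 to 29.3 CPM, and the C3 livers sit below all B6 livers for Ccl27a and Cxcl13.

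Among the receptors, Ccr2 (12772, chr9:124016922-124023879), which brings monocytes out of the blood in answer to Ccl2, was low in C3 males. B6 males had 1.99, 1.99, 2.45, 3.23 and 1.41 CPM and C3 males 0.387, 0.374, 0.420, 0.784 and 0.714. B6 females had 2.62, 2.03, 2.29, 1.76 and 2.83 CPM and C3 females 1.02, 1.31, 2.87, 1.92 and 0.871. C3 males did not overlap with B6 males or with C3 females, and the females of the strains overlapped.

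In males Ccr2 was 3.83-fold lower in C3 (-1.94 ± 0.30, adjusted p = 5.0e-05; -2.10, -1.85 and -1.86 within pools), and in females the difference was -0.55 ± 0.25 (adjusted p = 0.101). C3 females against C3 males gave 1.47 ± 0.30 (adjusted p = 0.00118), just outside the limit and past it in DESeq2, and the interaction of 1.39 ± 0.39 was not called (adjusted p = 0.0639).

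Cx3cr1, the receptor of the membrane ligand Cx3cl1 on monocytes and macrophages, was the receptor whose strain difference passed the looser limit with C3 higher, at 0.542 ± 0.0958 CPM in B6 females, 1.64 ± 0.800 in C3 females, 0.459 ± 0.168 in B6 males and 1.04 ± 0.269 in C3 males (SD, n = 5 each). It was not called, with log2 differences of 1.59 ± 0.34 in females (adjusted p = 0.00152) and 1.12 ± 0.38 in males (adjusted p = 0.0288). Cx3cl1 itself had adjusted p-values from 0.239 to 0.92 in the pairwise comparisons. Cxcr6, the receptor of Cxcl16, was at 1.44 ± 0.488 CPM in B6 females, 0.709 ± 0.342 in C3 females, 0.995 ± 0.724 in B6 males and 0.299 ± 0.0944 in C3 males, with adjusted p-values by strain of 0.0148 and 0.0073. Cxcr4, the receptor of Cxcl12, and Ccr3 showed no adjusted p under 0.351. Ccr9 had 0 to 2 counts in each C3 male and 1 to 19 in the other livers, and its adjusted p was 0.0147 by sex in C3 and 0.00467 by strain in males.

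Markers of the white blood cells that carry these receptors moved with strain and sex as well, and in whole liver fewer cells of a type and less RNA per cell cannot be told apart. The monocyte and macrophage markers Csf1r, Cd68, Lyz2, Ly6c2 and Itgam summed to 151 to 240 CPM in females and 107 to 164 in males of B6, and 88.5 to 157 and 69.4 to 85.7 in C3 females and males. In each sex 2 of the 5, Csf1r and Lyz2, were called lower in C3, and 4 were lower at an adjusted p under 0.05. The Kupffer cell markers Clec4f, Timd4, Vsig4, Marco and Cd5l summed to 313 to 390 CPM, 199 to 295, 224 to 318 and 155 to 231 in the same order of groups. Of these, Clec4f and Vsig4 were called lower in C3 females, and Vsig4 in C3 males. Markers of other cells shifted too at an adjusted p under 0.05. Of the 5 stellate cell and fibroblast markers (Lrat, Dcn, Reln, Colec11 and Pdgfrb), 4 were lower in C3 in each sex. Of the 5 of sinusoidal endothelium (Stab2, Clec4g, Lyve1, Oit3 and Pecam1), 3 were. In each of these 2 lists 4 were higher in females of each strain. No marker of the 2 lists passed this limit in the other direction.

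Dendritic cell markers (Flt3, Zbtb46, Clec9a, Siglech and Itgax) ran from 5.03 to 12.2 CPM over all livers, with Flt3 and Itgax called lower in C3 males. NK cell markers (Ncr1, Klrb1c, Gzma, Prf1 and Eomes) ran from 0.390 to 2.15 CPM, with Klrb1c called lower in C3 in each sex. Gzma, the other NK marker that could be tested, was not called by strain. Its log2 difference was 0.60 ± 0.30 in females (adjusted p = 0.14) and -0.29 ± 0.45 in males (adjusted p = 0.659). The summed NK markers had medians of 1.31 CPM in B6 females and 1.41 in C3 females, and 0.826 in B6 males and 0.428 in C3 males. T cell markers (Cd3e, Cd3d, Cd3g, Cd8a and Cd4) summed to 1.26 to 3.38 CPM in females and 3.33 to 7.69 in males, and the difference lay in Cd4, at 0.442 to 1.25 CPM in females and 2.42 to 7.06 in males, which was called lower in females of each strain. The other T cell markers that could be tested leaned the other way at the looser limit, with Cd3g higher in females of B6 (1.01 ± 0.32, adjusted p = 0.0202) and Cd3e in females of C3 (1.51 ± 0.48, adjusted p = 0.0194). By strain, Cd3g was lower in C3 females and males (edgeR's quasi-likelihood test, adjusted p = 0.00564 and 0.0439). In C3 males Cd3e was lower (adjusted p = 0.0312) and Cd4 higher (adjusted p = 0.012), and neither passed this limit in females. The part of these cell types in the levels of Ccr2, Ccl6, Ccl9 and Cxcl10 was not tested.

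**Figure D4:**
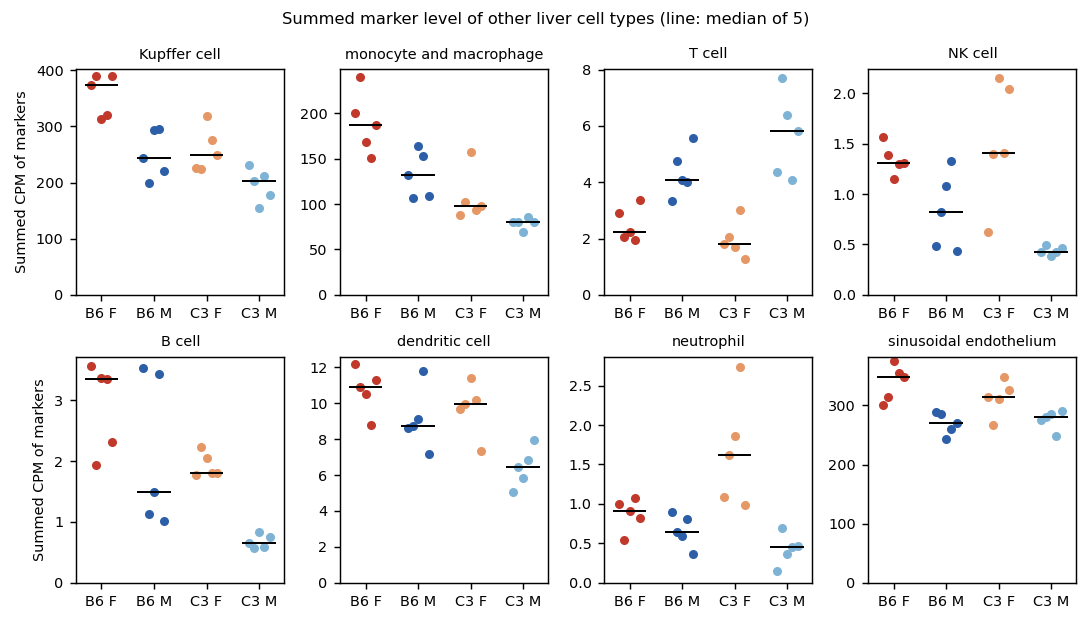
Summed CPM of the marker genes named in the text for cell types of the liver in every liver, with a line at the median of 5. Monocyte and macrophage markers are lowest in C3 males, at 69.4 to 85.7 CPM, and highest in B6 females, at 151 to 240.

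Genes that act with chemokines but lie outside the family names were read from a list of 36, of which 35 could be tested. Of these 35, 1 was called for sex in B6 (6.34% of all genes tested were) and 3 for sex in C3 (6.90%). By strain, 4 of the 35 were called in females (9.40% of all genes) and 5 in males (9.64%). Whether the list differs from all genes was not tested. Ackr1, an atypical receptor that binds chemokines without G protein signaling, was higher in C3, at 0.334 ± 0.0892 CPM in B6 females and 3.19 ± 0.795 in C3 females (3.23 ± 0.19 (SE), adjusted p = 2.8e-10), and at 0.343 ± 0.158 in B6 males and 1.95 ± 0.253 in C3 males (2.57 ± 0.21, adjusted p = 1.5e-08). Ppbp, a platelet ligand of Cxcr2, was lower in C3, with log2 differences of -2.27 ± 0.34 in females (adjusted p = 4.1e-05) and -2.44 ± 0.34 in males (adjusted p = 1.6e-05).

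Of the 4 kinases in the list that switch off activated receptors (Adrbk1, Adrbk2, Grk5 and Grk6), 2 were called, in opposite directions by strain. Grk5 was at 7.30 ± 0.780 CPM in females and 15.9 ± 2.90 in males of B6, and 4.26 ± 0.669 and 4.27 ± 0.469 in C3 females and males, and was called in B6 by sex (-1.13 ± 0.13, adjusted p = 2.1e-06) and by strain in females (-0.77 ± 0.13, adjusted p = 1.5e-04) and males (-1.90 ± 0.13, adjusted p = 2.3e-09). Adrbk2 (Grk3) was at 4.71 ± 0.365, 3.73 ± 0.673, 14.2 ± 2.81 and 5.66 ± 1.67 CPM in the same order (SD, n = 5 each), and was called higher in C3 females than in B6 females (1.59 ± 0.16, adjusted p = 3.7e-07) and than in C3 males (1.36 ± 0.16, adjusted p = 5.8e-06). Plcb2, a phospholipase, and Elmo1, a partner of the Rac activator Dock2, were called higher in females of C3 (0.71 ± 0.14, adjusted p = 7.7e-04, and 0.60 ± 0.09, adjusted p = 9.1e-05). Between males Plcb2 was called lower in C3 (-0.90 ± 0.14, adjusted p = 4.9e-05), and Sdc4, a heparan sulfate carrier that binds chemokines, was called higher (0.81 ± 0.13, adjusted p = 9.6e-05).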

How the data were processed

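RNA from 20 mouse livers was measured by stranded, ribosomal RNA depleted, paired-end sequencing with 125-base reads. The authors trimmed reads with cutadapt 1.9.1, aligned them with STAR 2.5.1b to mm9, which derives from a B6 strain, and counted pairs per RefSeq gene by strand with featureCounts (Subread 1.5.0-p1), leaving out reads with several locations. Whether this reference lowers counts in C3 livers was not tested. The deposited tables hold these raw counts and TPM values made by the authors from them; the 2 columns of gene names carry exchanged headers.

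Counts were fitted here in R 4.3.3 with edgeR 4.0.16 (TMM, filterByExpr, group and pool, all 20 libraries), and p-values were adjusted over all 13704 genes kept. CPM here are counts over the TMM-scaled library size. SE is the log2 fold change over the root of the F statistic. The fit was run on counts simulated without pool effects, with genes changed in B6 females. For females against males of B6 it called 77 of 100 genes changed 2-fold and 92 of 100 changed 4-fold, with 0 false calls. As no pool effect was simulated, this run cannot test the pool term. Counting floors cover counting error only. All pairs of livers within a group differed by more than sampling noise. Alternatives used DESeq2 1.42.0 and limma 3.58.1. Genes called in any comparison are described in full, the 8 highest by level, and the rest in their role groups. A member that the rule also matches and a B cell marker are not reported here and enter none of these counts or sums. The genes, lists and tests were chosen with earlier results of these data known. Sequences come from the mm9 (NCBIM37) genome; all 22 tested genes matched GENCODE vM1 by symbol. Livers with the same number share only the number, so no pairing was assumed.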

Additional observations from a re-analysis of the deposited data

Results flagged for a closer look

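Among the 7 called genes, 28 groups of 5 livers were screened for a liver far from the other 4, and 3 were found, where chance gives about 1 in 20. For Ccl27a, C3 female 4 stood above the other C3 females at 0.991 CPM. For Cxcl10, C3 male 1 stood above its group at 1.51 CPM. For Cxcl13, C3 male 2 stood above its group at 0.403 CPM.

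The sex effect on Ccl27a differed between the strains, by 1.68 ± 0.24 (SE) on the log2 scale in the interaction term of the edgeR fit (adjusted p = 5.8e-04). It was larger in C3, where each of the 5 females was above each of the 5 males. The C3 males had 2 to 8 counts a liver. The interaction stayed called in 5 of 20 fits without 1 liver. It was not called without the pool term, with the replicate number as a block, or in limma on log2(TPM + 1) or log2(TPM + 0.1).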

How the results depend on the processing

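The fold changes of called genes kept their sign under each alternative run, and 245 of 280 values without 1 liver and 98 of 111 values under the other settings stayed called. The count of called genes by sex in B6 was 1, became 0 without the pool term and 7 at an adjusted p under 0.05, and was 1 whichever liver was left out. By sex in C3 it was 2, became 1 without the pool term, 3 in DESeq2, without the filter on low counts and in limma on log2(TPM + 0.1), with Ccr2 added each time, and 10 at an adjusted p under 0.05, and ran from 1 to 3 without 1 liver. By strain in females it was 5, became 2 without the pool term, 3 in a fit to the 10 female livers and 11 at an adjusted p under 0.05, and ran from 3 to 5 without 1 liver. Whether the share in females stays above that of all genes without the pool term or in the 10 livers was not tested. By strain in males it was 5, became 7 in DESeq2 (Cxcl9 and Cxcl10 added) and 13 at an adjusted p under 0.05, and ran from 5 to 7 without 1 liver. The interaction count was 1, became 0 in limma on log2(TPM + 1) and on log2(TPM + 0.1), 0 without the pool term and 2 at an adjusted p under 0.05, and ran from 0 to 1 without 1 liver. The cause was not tested. On the log2(TPM + 1) scale, whose added 1 shrinks the differences of low genes, Ccl27a was 0.74 by sex in C3, -2.76 by strain in males and 0.29 in the interaction, and Ccr2 was -0.75 and Cxcl13 -1.53 by strain in males.

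Without 1 liver, Cxcl1 by sex in C3 ran from -1.71 to -1.29 and was not called without C3 female 1, 3, 4 or 5 or C3 male 1, 2 or 3. By strain in females, Ccl6 ran from -0.99 to -0.70 and was not called without B6 female 1 or 5 or C3 female 1, 3 or 5, and Cxcl10 ran from -1.35 to -1.0 and was not called without B6 female 2, 3 or 5 or any C3 female. The Ccl27a interaction ran from 1.53 to 1.82 and stayed called in 5 of 20 such fits, those without B6 female 4, B6 male 2 or 4, C3 female 5 or C3 male 5. DESeq2 also called Cx3cr1 by strain in females. Without B6 female 5, Cxcl9 and Cxcl10 were called by strain in males.

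Livers of the same replicate number did not deviate together, with mean correlations of deviations of -0.19, -0.24, 0.22 and 0.18 in the 4 comparisons, and 0.1, -0.013, 0.064 and 0.01 once pool effects were taken out. With the replicate number as a block the counts were 1, 2, 4, 5 and 0, with Cxcl10 in females and the Ccl27a interaction no longer called. Requiring more than 10 counts left 19, 15, 17 and 12 genes detected in B6 females, B6 males, C3 females and C3 males, and a filter of 0.5 CPM in 5 livers kept 19 genes for testing. The floor of 3 counts stands at up to 0.116 CPM, near the levels of Ccr9 and Ccl27a in C3 males.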
